A study of Arabidopsis thaliana and Arabidopsis thaliana x Arabidopsis arenosa with 9 samples.

Results

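The regulators of seed coat tannin synthesis are 6 genes of Arabidopsis thaliana, chosen by name and locus: TT2 (AT5G35550), TT8 (AT4G09820), TTG1 (AT5G24520), TT1 (AT1G34790), EGL3 (AT1G63650) and MYB5 (AT3G13540). They are 6 of the 33602 loci counted, and 6 of 6 passed the filter on low counts that left 16779 loci for testing. The counts come from mRNA of seeds dissected at day 3 after pollination in the reciprocal crosses of the accessions Col-0 and C24, with the seed parent written first. In Col-0 X C24 the seed parent was the male-sterile line ColA9 and the pollen parent wild-type C24. In C24 X Col-0 the seed parent was the male-sterile line C24A9 and the pollen parent wild-type Col-0. Both seed parents were hemizygous for the same kind of male sterility construct, and each replicate pooled the seeds of many siliques. Seeds of these crosses are also called here those of Col-0 mothers and of C24 mothers. Each cross had 2 libraries, described as biological replicates. The methods assign to replicate 2 of both crosses a treatment with duplex-specific nuclease, an enzyme that degrades the double-stranded cDNA of abundant transcripts, and a reamplification. By that account treatment and replicate cannot be told apart. Another 2 columns of counts carry a mark N beside the name of replicate 1 of each cross. The sources used here do not explain it, and those columns serve only for description. The abundant pathway transcripts CHS, DFR, LDOX and BAN were lower in the marked column than in replicate 2 of each cross. In contrast, TT12 and CHI were lowest in replicate 2 of each cross. So were F3H with Col-0 mothers, and F3'H, TT19 and AHA10 with C24 mothers. CHS was at 11041.8 reads per 1000000 counted in replicate 1, 1664.1 in replicate 2 and 974 in the marked column with Col-0 mothers, and at 22050.1, 6160.4 and 989 with C24 mothers. DFR with Col-0 mothers was at 3181.2, 3193.9 and 1446.3. Which columns the nuclease treatment reached is therefore uncertain, and the comparison of replicates below is named by replicate number only.

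Tannins, or proanthocyanidins, are flavonoid polymers that brown the Arabidopsis seed coat and collect in its innermost layer, the endothelium. The seed coat grows from the ovule integuments, so it carries the genotype of the seed parent alone. The late genes of the pathway, among them BAN, are switched on by a complex of a MYB protein (TT2), a bHLH protein (TT8) and a WD40 repeat protein (TTG1). EGL3 is a bHLH protein that overlaps in function with TT8 and GL3, MYB5 is a MYB protein that acts with the complex in mucilage and tannin synthesis, and TT1 is a zinc finger protein of the WIP family needed in the endothelium. Mutants of TT2, TT8, TTG1 and TT1 have pale seeds, which gives the genes their transparent testa names.

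The 6 loci lie on 4 chromosomes in the TAIR10.1 annotation. TT1 spans positions 12763902 to 12765686 of chromosome 1 and EGL3 positions 23599413 to 23603164 of the same chromosome, both on the plus strand. MYB5 spans positions 4419960 to 4421751 of chromosome 3 and TT8 positions 6181881 to 6186523 of chromosome 4, also on the plus strand. TT2 spans positions 13726743 to 13727961 of chromosome 5 on the plus strand, and TTG1 positions 8370317 to 8372847 of that chromosome on the minus strand. The longest transcripts of TT8 and EGL3, the bHLH genes, have 7 exons each, and those of the other members have 2.

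The 250 bases before the annotated start are shown for the members whose levels differed most between libraries, as the DNA next to which bHLH and MYB factors would act. They are from RefSeq TAIR10.1, read 5′ to 3′ on the gene's own strand, here the plus strand for each. Capitals mark the E-box CANNTG, the letters that bHLH proteins bind, which reads the same on both strands. The TT8 stretch is chr4:6181631-6181880, the TT1 stretch chr1:12763652-12763901 and the EGL3 stretch chr1:23599163-23599412.
TT8: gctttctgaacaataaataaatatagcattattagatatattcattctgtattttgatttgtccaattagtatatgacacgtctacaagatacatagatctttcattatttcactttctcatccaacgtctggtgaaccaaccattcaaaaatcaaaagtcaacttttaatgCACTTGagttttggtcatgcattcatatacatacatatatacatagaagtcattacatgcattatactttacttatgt
TT1: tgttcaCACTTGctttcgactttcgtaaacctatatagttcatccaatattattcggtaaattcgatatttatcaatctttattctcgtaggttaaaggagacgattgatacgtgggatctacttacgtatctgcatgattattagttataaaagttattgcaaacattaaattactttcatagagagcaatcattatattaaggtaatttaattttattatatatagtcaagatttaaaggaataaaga
EGL3: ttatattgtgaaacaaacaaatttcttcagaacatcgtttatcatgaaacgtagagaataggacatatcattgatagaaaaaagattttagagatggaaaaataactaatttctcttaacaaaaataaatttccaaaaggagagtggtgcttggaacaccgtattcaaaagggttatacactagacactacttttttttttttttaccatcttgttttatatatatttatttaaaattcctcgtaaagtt
TT8 held 1 E-box, whose first base lies 78 bases before the start, TT1 held 1 at 244 bases, and EGL3 held 0. TT2 held 2, and TTG1 and MYB5 held 1 each. Of 26711 promoters of this length, 55.3% held at least 1. The G-box CACGTG, an E-box itself, occurred in 0 of the 6 members and in 6.58% of all promoters. A MYB core AACNG, searched on both strands, occurred 2 times in TT2 and in 0 of the other 5, against 70.2% of all promoters. These matches are letters in a window and were not read as sites of binding.

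The seed coat itself was well represented. Its markers BAN, TT12, TT16, STK and INO had reads in all 4 libraries, summing to between 2603.9 and 6472.0 normalized CPM, that is, counts per 1000000 reads after scaling by edgeR's TMM method. BAN alone was at between 1750.6 and 5040.8, and BAN and TT12 are also among the late tannin genes below. Embryo markers (LEC1, WOX2, WOX8 and FUS3) summed to 3.07 and 3.8 in the replicates 1 and to 31.4 and 19.6 in the replicates 2. In replicate 1 of C24 X Col-0, WOX2 and FUS3 were at 0. Endosperm markers (AGL62, FIS2, FWA, IKU2, MINI3 and PHE1) summed to between 44.1 and 124. Silique wall markers (FUL, IND and ALC) summed to between 65.2 and 72.1, and the pollen markers VGD1 and PGA4 to between 0.474 and 15.1. Green tissue markers (LHCB1.1 and RBCS1A) summed to 556 and 299 with Col-0 mothers and to 1287.2 and 955 with C24 mothers. Library totals ran from 3538335 to 6498145 reads. Replicate 2 of C24 X Col-0 stood apart, with reads on 29250 loci against 19828 to 20580 in the other 3 libraries. In that library 71.1% of the 4598 protein-coding loci with 0 reads in every other column had reads, at a mean of 3.88 per kilobase. In bulk seed RNA, fewer cells of a type and less RNA per cell cannot be told apart. Reads of both crosses were aligned to Col-0 transcripts, so a lower level in C24 X Col-0 and a loss of reads carrying C24 variants cannot be told apart either.

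TT2, the MYB protein that confers specificity for tannin genes, was at 133 and 86.7 normalized CPM in replicates 1 and 2 from Col-0 mothers, and at 118 and 105 from C24 mothers. The C24 X Col-0 libraries lay inside the range of the Col-0 X C24 libraries. The means were 110 ± 33 and 111 ± 9.33 (SD, n = 2 each). In edgeR's quasi-likelihood test the log2 fold change, given throughout as Col-0 mothers over C24 mothers, was -0.02 (SE 0.41, adjusted p = 0.997).

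TT8, the bHLH partner that also activates its own promoter, was at 149 and 141 with Col-0 mothers and at 337 and 212 with C24 mothers, in normalized CPM of replicates 1 and 2. Both libraries of Col-0 X C24 lay below both of C24 X Col-0. The means were 145 ± 6.16 and 274 ± 88 (SD, n = 2 each). The log2 fold change was -0.92 (SE 0.46, 1.89-fold lower in Col-0 X C24), which did not pass in edgeR (adjusted p = 0.778). With the replicate number as a block it was -0.88 (SE 0.31, adjusted p = 0.115), again short of the threshold of 0.05. The value moved to -0.55 when replicate 1 with the C24 mother was left out, and to -1.22 when replicate 2 was.

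TTG1, the WD40 protein on which the complex assembles, was at 42.2 and 35.5 normalized CPM with Col-0 mothers, against 52.9 and 33.8 with C24 mothers. The Col-0 X C24 libraries lay inside the range of the other cross, with a log2 fold change of -0.15 (SE 0.37, adjusted p = 0.95 in edgeR). MYB5 was at 62.4 and 62.4 normalized CPM with Col-0 mothers, against 66.7 and 46.8 with C24 mothers, with a log2 fold change of 0.14 (SE 0.36, adjusted p = 0.955 in edgeR). Its groups overlapped as well. The MYB5 value is uncertain, because the gene lies wholly inside AT3G13530 on the opposite strand (chromosome 3, positions 4411688 to 4423000). Of the 80-base windows of MYB5, 94.1% occur in a transcript of AT3G13530, read on the other strand, while the other 5 members shared 0%. The sources state no strand for the libraries, so reads of the 2 genes cannot be told apart. AT3G13530 had 646 and 691 reads with Col-0 mothers and 448 and 782 with C24 mothers.

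TT1, the zinc finger protein, was at 49 and 19.3 with Col-0 mothers and at 104 and 33.3 with C24 mothers, in normalized CPM of replicates 1 and 2. Replicate 1 was the higher library in each cross, and C24 X Col-0 the higher cross in each replicate, by 2.13-fold in replicate 1 and 1.72-fold in replicate 2. Between the crosses the libraries overlapped. The log2 fold change was -1.0 (SE 0.70, adjusted p = 0.838 in edgeR), and with the replicate block -0.95 (SE 0.28, adjusted p = 0.0661). With the block and the size factors of DESeq2 in edgeR it was -0.99 and passed, at an adjusted p of 0.0377, while DESeq2 with the block gave 0.171. Leaving out replicate 1 with the C24 mother gave 0.04, in a fit without the block. That fit set replicates 1 and 2 with Col-0 mothers against replicate 2 alone with the C24 mother, so cross and replicate were mixed. Within replicate 2 the log2 of Col-0 over C24 mothers was -0.79. The TT1 call between the crosses thus depended on the block, the scaling and the test.

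EGL3, the second bHLH gene, had 94 and 79 reads with Col-0 mothers and 2 and 78 with C24 mothers. As normalized CPM these are 14.4 and 17.7 against 0.474 and 12.7. Both libraries of Col-0 X C24 lay above both of C24 X Col-0, but the second library of C24 X Col-0 came close to them. The log2 fold change was 1.25 (SE 1.11, adjusted p = 0.874 in edgeR) and with the block 1.84 (SE 0.96, adjusted p = 0.385), and the size of both rests on the library with 2 reads. Between the replicates 1 the level was 30.4-fold higher in Col-0 X C24 (95% exact interval 8.19 to 255), and between the replicates 2 it was 1.4-fold higher (1.01 to 1.94). Such intervals hold counting error alone and not the spread between libraries, and they take copies made by PCR for separate molecules. When replicate 2 with the C24 mother was left out, the log2 fold change was 5.01 (adjusted p = 0.217 in edgeR), and when replicate 1 was left out it was 0.34.

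That second C24 X Col-0 library is the one with reads on otherwise silent loci. EGL3 had 30.6 reads per kilobase there, above the mean of 3.88 and the 95th percentile of 14.8 at the silent loci. At the mean density, 9.91 of its 78 reads would fall on a gene of its length, and at the 95th percentile 37.9. GL3, the nearest bHLH relative of EGL3 and a trichome regulator, had 20 reads in that library and 0 in each of the other columns. How much of the EGL3 count there has the same source as the reads on silent loci was not tested. In the other 5 members the mean density would account for between 4.45 and 7.79 reads of 205 to 1307.

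Of the 6 members, 0 passed in edgeR's test between the crosses, against 0 of 16779 loci in all (0%). Unadjusted p-values under 0.05 were found for 0 members and for 1251 loci (7.46%), and DESeq2 called 302 loci and 0 members. With the replicate block 1118 loci passed (6.66%), 376 higher and 742 lower in Col-0 X C24, and again 0 members. By non-overlap of normalized CPM alone, 1 member (TT8) was lower in both Col-0 X C24 libraries, as were 17.2% of all tested loci. In the other direction 1 member (EGL3) was higher in both, as were 19.6% of all tested loci. These shares are near those of any locus. The median log2 fold change of the members was -0.09, beside -0.01 over all loci tested. With 2 libraries against 2, an exact permutation test of a single value cannot go below p = 0.333.

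**Figure D1:**
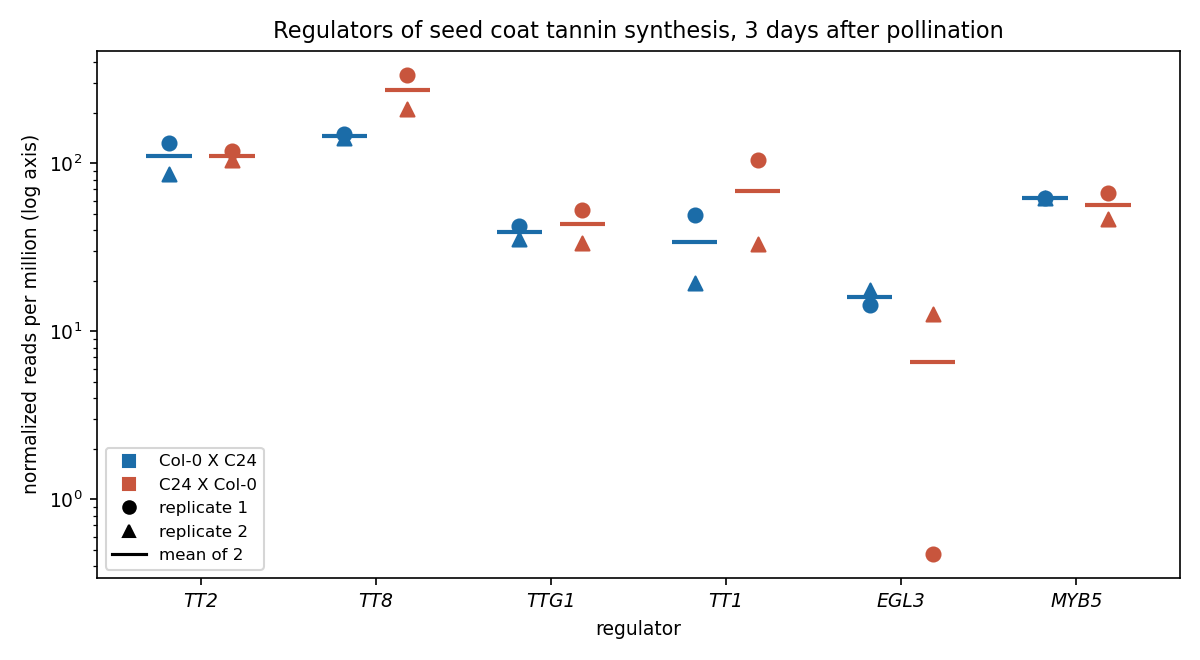
Normalized CPM (log axis) of the 6 regulators in each library, with Col-0 X C24 in blue and C24 X Col-0 in red, circles for replicate 1, triangles for replicate 2 and lines for the mean of 2. TT8 is higher in both C24 X Col-0 libraries, TT1 is lower in replicate 2 of both crosses, and EGL3 is at 0.474 in replicate 1 of C24 X Col-0 and between 12.7 and 17.7 elsewhere.

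Per kilobase of the longest transcript, levels can be set against each other between genes. The nuclease treatment acts on abundant transcripts, and each mean below pools replicates 1 and 2. Its part in these ranks was not tested. The rank of MYB5 is uncertain, because its reads cannot be told apart from those of AT3G13530. In Col-0 X C24 the mean of TT2 was 96 ± 28.8 normalized CPM per kilobase, followed by TT8 at 72.3 ± 3.07, MYB5 at 46.7 ± 0.0385, TT1 at 29.4 ± 18.1, TTG1 at 21.2 ± 2.61 and EGL3 at 6.31 ± 0.916 (SD, n = 2 each). In C24 X Col-0 the order was TT8 at 137 ± 43.9, TT2 at 97.1 ± 8.14, TT1 at 59.3 ± 43.3, MYB5 at 42.4 ± 10.5, TTG1 at 23.7 ± 7.39 and EGL3 at 2.57 ± 3.38. TT2 ranked above TT8 in both Col-0 X C24 libraries, and TT8 above TT2 in both C24 X Col-0 libraries. With Col-0 mothers the neighbours TT2 and TT8 differed by less than 1 SD of TT2, and TT1 lay within 1 SD of its own from both MYB5 and TTG1. With C24 mothers TT8 and TT2 differed by less than 1 SD of TT8, and TT1 lay within 1 SD of its own from both TT2 and MYB5. EGL3 was lowest in all 4 libraries.

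Ratios of members inside a library do not depend on how libraries are scaled. They were compared after the values had been seen and carry no test. TT8 had 3.53 and 3.96 reads for each read of TTG1 in replicates 1 and 2 with Col-0 mothers, and 6.36 and 6.28 with C24 mothers. The 95% exact intervals, 3.09 to 4.06 and 3.32 to 4.75 against 5.52 to 7.36 and 5.42 to 7.31, did not overlap between the crosses. They hold counting error alone and not the spread between the libraries of a cross. How many other pairs of genes lie as far apart was not counted. The columns marked N, named for replicate 1, gave 2.82 (2.47 to 3.22) and 6.36 (5.49 to 7.39). The first of these intervals lay below that of Col-0 X C24 replicate 2, so such intervals also parted within a cross. The ratio of TT8 to TT2 was 1.12 and 1.62 with Col-0 mothers and 2.86 and 2.03 with C24 mothers, and 1.15 and 1.7 in the columns marked N. It too was higher in C24 X Col-0 in each pair of columns. Its intervals overlapped between the replicates 2, at 1.43 to 1.85 with Col-0 mothers and 1.84 to 2.23 with C24 mothers. Within Col-0 X C24 they did not, with 1.02 to 1.23 in replicate 1. The ratio of TT2 to TTG1 crossed between the groups, at 3.16 and 2.44 with Col-0 mothers and 2.23 and 3.1 with C24 mothers.

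The ratio of TT1 to TT8 split the libraries the other way, by replicate and not by cross. It was 0.328 in Col-0 X C24 (0.288 to 0.373) and 0.31 in C24 X Col-0 (0.278 to 0.345) in the replicates 1. In the replicates 2 it was 0.137 (0.108 to 0.172) and 0.157 (0.135 to 0.182). The columns marked N, at 0.314 and 0.309, lay with the replicates 1. EGL3 had 0.0967 and 0.126 reads for each read of TT8 in Col-0 X C24, against 0.00141 and 0.0597 in C24 X Col-0. The columns marked N gave 0.113 and 0.0144, so TT8 had more reads than EGL3 in all 6 columns, and the EGL3 share was lower in each C24 X Col-0 column than in any Col-0 X C24 column.

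**Figure D2:**
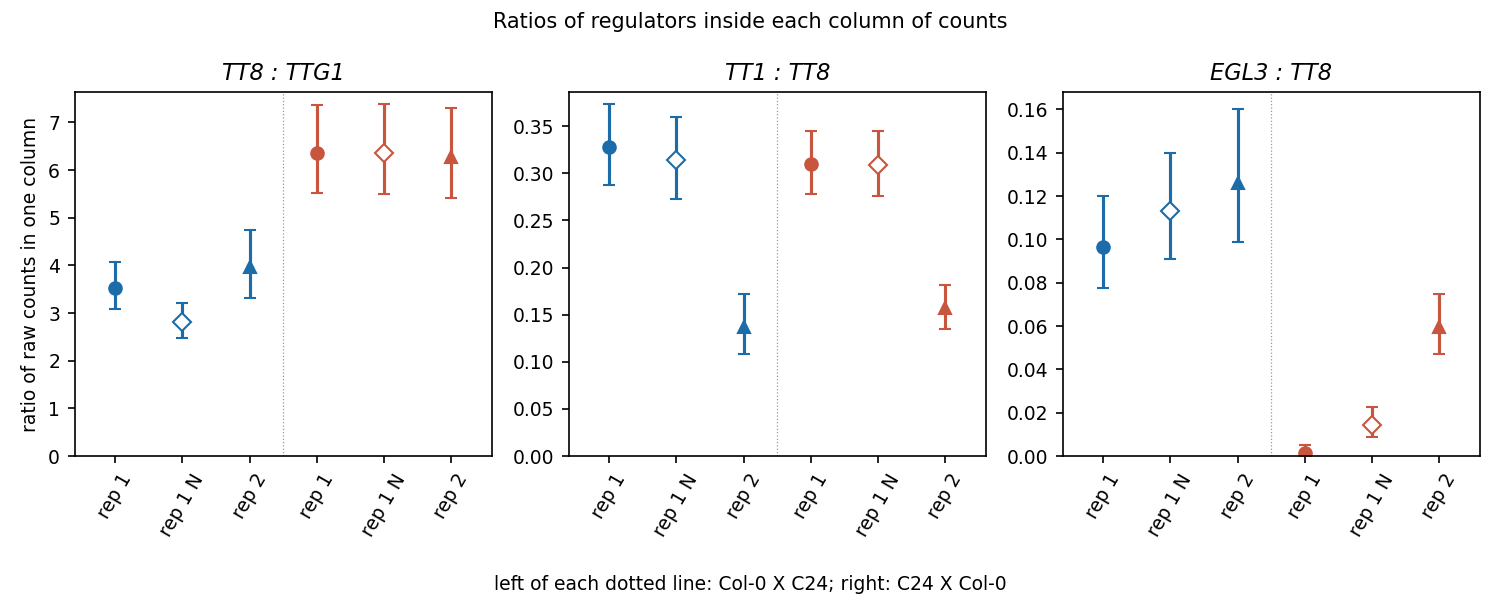
Ratios of raw counts inside each column for TT8 to TTG1, TT1 to TT8 and EGL3 to TT8, with 95% exact intervals for counting error, Col-0 X C24 in blue and C24 X Col-0 in red, and open diamonds for the columns marked N. TT8 to TTG1 lies at 2.82 to 3.96 in the Col-0 X C24 columns and at 6.28 to 6.36 in the C24 X Col-0 columns. TT1 to TT8 lies at 0.137 and 0.157 in replicate 2 and at 0.309 to 0.328 in the other columns. No test was made.

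Among partners and paralogs of the complex, 2 of 11 loci passed the filter. These were LWD1 and LWD2, WD40 relatives of TTG1 known from the circadian clock, with log2 fold changes between the crosses of -0.12 and -0.38, and 0 of the 2 passed in edgeR with or without the block. The MYB genes WER, GL1, PAP1, MYB113 and MYB114, which partner the same bHLH and WD40 proteins in hairs, roots and anthocyanin synthesis, had 5 or 6 reads in the library that stood apart and 0 in the other 3 libraries. Of the other WIP zinc finger genes, 1 of 5 passed the filter, WIP2 (16, 1, 2 and 40 reads in Col-0 X C24 replicates 1 and 2 and C24 X Col-0 replicates 1 and 2), and 0 passed the test. TT1 was therefore the only WIP gene with more than 40 reads in any of these libraries.

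Repressors of the complex gave 4 of 8 tested loci and 0 calls, with log2 fold changes of 1.16 for TRY and -0.51 for CPC, small MYB proteins that displace the activating MYB from the bHLH protein. Of the flavonol MYB factors, which act without the complex, 2 of 3 were tested and 0 passed. MYB11 and MYB12 were at 0.43 and 0.65, and both lay higher in both Col-0 X C24 libraries, as did 19.6% of all tested loci. Of 10 other seed coat regulators tested, 0 passed in edgeR without the block and 2 passed with it, beside 6.66% of all tested loci. STK, a MADS protein of ovule identity, was at 735 and 662 normalized CPM with Col-0 mothers and at 214 and 333 with C24 mothers. It was higher in Col-0 X C24 with the block (log2 fold change 1.38, SE 0.35, adjusted p = 0.0311), but not without it (adjusted p = 0.677). GL2, a homeodomain protein of mucilage synthesis downstream of the complex, was lower in Col-0 X C24 with the block (log2 fold change -1.32, SE 0.30, adjusted p = 0.0197) and not without it (adjusted p = 0.81). INO, which specifies the outer integument, had the largest value of this list without the block, 1.5 (adjusted p = 0.639).

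The late tannin genes, the targets of the complex, gave 0 calls of 6 between the crosses with and without the block. With TMM scaling, 6 of 6 had negative log2 fold changes, that is, lower estimates with Col-0 mothers. Without the block the values were -1.03 for DFR, -0.47 for LDOX, -0.66 for BAN, -1.22 for TT12, -1.52 for TT19 and -0.42 for AHA10. These encode the reductase and dioxygenase that lead to anthocyanidins, the reductase that makes tannin units, a vacuolar transporter, a glutathione transferase and a proton pump. Their median was -0.85, beside -0.01 over all loci. The TMM factor of C24 X Col-0 replicate 1 was 0.692, and not every direction held in CPM before that scaling. AHA10 was then at 279 and 281 with Col-0 mothers and at 337 and 205 with C24 mothers, so its mean was higher with Col-0 mothers. LDOX was at 2461.8 and 2125.6 against 2449.4 and 2464.1, higher in replicate 1 and lower in replicate 2. DFR, BAN, TT12 and TT19 stayed lower with Col-0 mothers in both replicates. BAN was at 2728.1 and 1750.6 normalized CPM with Col-0 mothers and at 5040.8 and 2025.3 with C24 mothers, and its groups overlapped. DFR alone of the 6 did not overlap, at 3174.7 and 2537.6 with Col-0 mothers and at 8367.9 and 3323.7 with C24 mothers. Over all tested loci, 17.2% lay lower in both Col-0 X C24 libraries.

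Of the early flavonoid enzymes, 0 of 5 passed without the block and 2 passed with it, beside 6.66% of all tested loci. CHS, which makes the chalcone that opens the pathway, had a log2 fold change of -1.80 with the block (SE 0.43, adjusted p = 0.0248), and F3H one of -1.46 (SE 0.31, adjusted p = 0.0134). Without it their values were -1.60 and -1.48 (adjusted p = 0.878 and 0.778 in edgeR). Of the 3 later tannin steps, TT10, TT15 and TT9, 0 passed, with values from -0.73 for TT15 to 0.43 for TT9. Of the endosperm markers tested, 4 also had lower estimates with Col-0 mothers, and FIS2 was at 0.03 without the block. Embryo and silique wall markers went both ways. Without the block WOX8 was at 1.80 and LEC1 at -0.13, and ALC was at 0.15 and IND at -0.75. Of the endosperm markers 0 of 5 tested passed with or without the block, with a median log2 fold change of -1.29 without it. MINI3 was at -1.75, AGL62 at -1.41 and PHE1 at -1.29. Of the 5 tested, 3 lay lower in both Col-0 X C24 libraries, as did 17.2% of all tested loci. LHCB1.1 and RBCS1A passed with the block, lower with Col-0 mothers, at -2.73 and -1.27 (adjusted p = 0.000554 and 0.0448 in edgeR). LHCB1.1 and RBCS1A mark green tissue. The part of any of these tissues in these results was not tested.

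**Figure D3:**
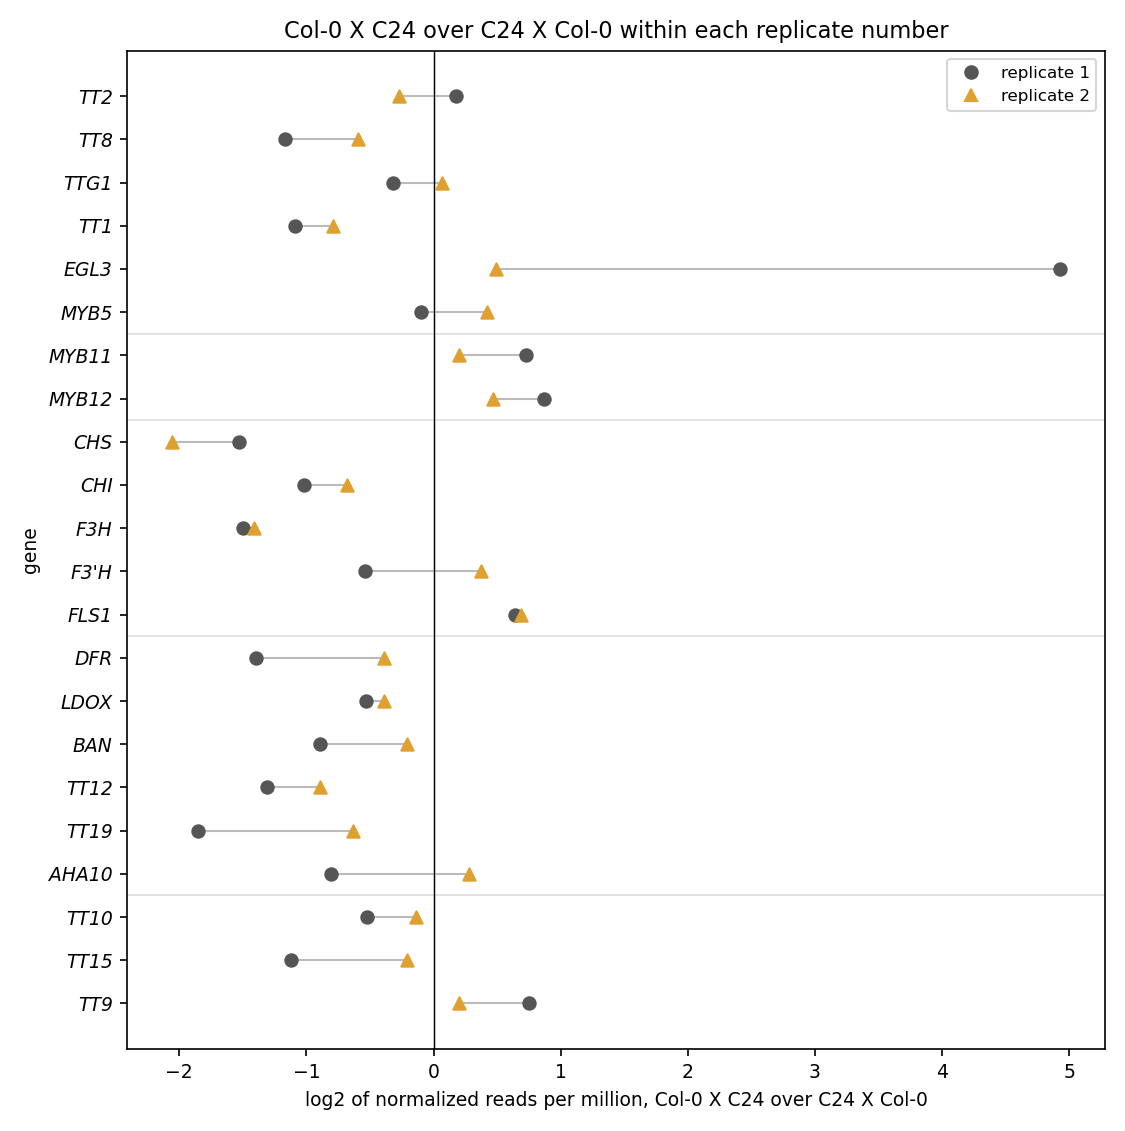
Log2 of normalized CPM of the Col-0 mother over the C24 mother within replicate 1 (circles) and within replicate 2 (triangles), for the 6 regulators and for flavonol MYB factors, early enzymes, late tannin genes and later steps, with no error bars because each point is 1 library over 1 library. TT8 (-1.17 and -0.59) and TT1 (-1.09 and -0.79) lie left of 0 in both, EGL3 lies right of 0 in both (4.93 and 0.49), and TT2, TTG1 and MYB5 fall on both sides.

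The comparison of replicate 2 with replicate 1, with the cross as a covariate, asked which members moved with the second factor of the design. TT1 fell in replicate 2, from 49 to 19.3 normalized CPM with Col-0 mothers and from 104 to 33.3 with C24 mothers, which is 2.54-fold and 3.14-fold. Its log2 fold change was -1.50 (SE 0.28, adjusted p = 0.00536 in edgeR). It was the 1 member of 6 to pass, and 6.68% of all tested loci passed in that direction. Without the cross in the design it did not pass (-1.54, adjusted p = 0.352), a fit in which 0 of 16779 loci were called. The other members gave log2 fold changes of -0.40 for TT2 (SE 0.28), -0.38 for TT8 (SE 0.30), -0.45 for TTG1 (SE 0.28), -0.25 for MYB5 (SE 0.28) and 1.64 for EGL3 (SE 0.96), with adjusted p-values from 0.352 to 0.633. EGL3 passed when no filter on low counts was applied (1.58, adjusted p = 0.0172), and its change within Col-0 X C24 was 0.30 against 4.74 within C24 X Col-0.

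Several enzyme genes of the pathway also fell in replicate 2. Of the early flavonoid enzymes 4 of 5 fell, with log2 fold changes of -2.79 for CHS (SE 0.44, adjusted p = 0.00187 in edgeR) and of -1.49, -1.51 and -1.61 for CHI, F3H and F3'H (adjusted p = 0.0205, 0.00849 and 0.0205). FLS1, the flavonol branch enzyme, was at 0.33 (adjusted p = 0.504). Of the late tannin genes 2 of 6 fell, TT12 at -2.04 and TT19 at -1.45 (adjusted p = 0.00239 and 0.0409 in edgeR). DFR, LDOX, BAN and AHA10 had values from -0.98 to -0.61 that did not pass. GL2 was the 1 other seed coat regulator of 10 to pass, with a log2 fold change of -1.37 (adjusted p = 0.012). None of the tested paralogs, repressors, flavonol factors, WIP genes or later steps passed. The medians were -0.39 for the members, -1.51 for the early enzymes and -0.92 for the late tannin genes, beside 0.07 over all loci tested.

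Some markers of other tissues moved with the same comparison. The embryo marker LEC1 rose from 8 to 68 reads with Col-0 mothers and from 13 to 89 with C24 mothers (log2 fold change 2.87, SE 0.53, adjusted p = 0.00456 in edgeR). The endosperm marker FIS2 rose with a log2 fold change of 2.08 (adjusted p = 0.00603), and the green tissue marker LHCB1.1 fell by 1.89 (adjusted p = 0.00413). The other endosperm markers tested did not pass, with FWA at 0.67, AGL62 at 0.31, PHE1 at 0.21 and MINI3 at -0.64. RBCS1A, the other green tissue marker, was at -0.50 and did not pass. The part of these shifts in the TT1 result was not tested.

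**Figure D4:**
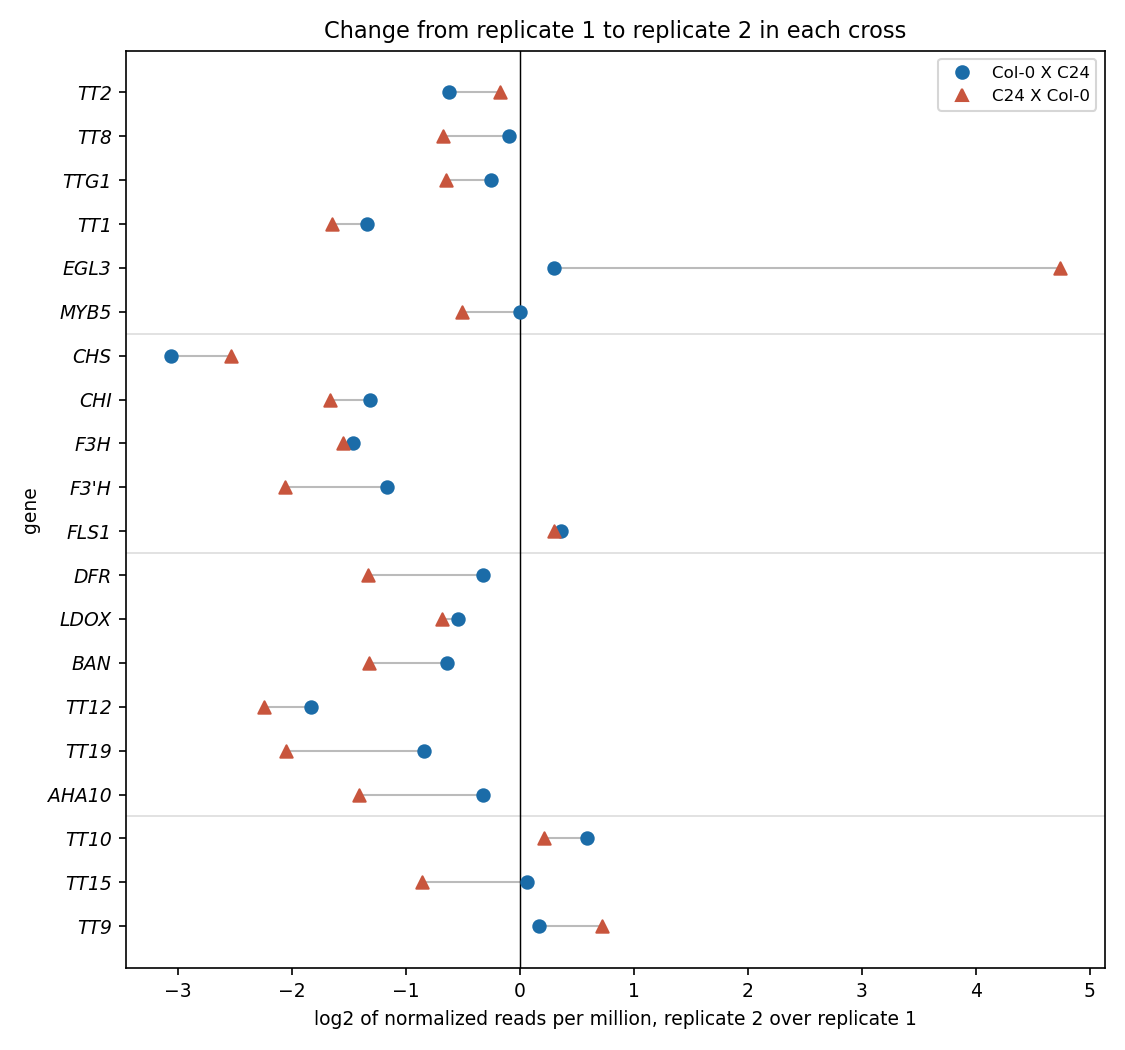
Log2 of normalized CPM of replicate 2 over replicate 1 in Col-0 X C24 (circles) and in C24 X Col-0 (triangles), for the 6 regulators, early flavonoid enzymes, late tannin genes and later tannin steps, with 1 library over 1 library at each point. TT1 lies at -1.34 and -1.65, near CHI at -1.31 and -1.66, while TT2, TT8, TTG1 and MYB5 lie between -0.67 and 0.00.

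The columns marked N stand beside replicate 1 of each cross. Per 1000000 counted reads, all 6 members were higher in the marked than in the unmarked column of both crosses, by 0.52 to 0.90 on the log2 scale with Col-0 mothers and 0.74 to 4.09 with C24 mothers. The medians over all loci compared were 0.69 and 1.08, so the members other than EGL3 lay near them. Most of the pathway's enzymes went the other way. CHS was at -3.50 and -4.48, DFR at -1.14 and -1.41 and BAN at -1.0 and -0.71, while FLS1 and AHA10 were higher. BAN had 18.3 and 15 reads for each read of TT8 in the unmarked replicates 1, and 6.14 and 5.47 in the marked columns. EGL3, with 2 reads in the unmarked column of C24 X Col-0 replicate 1, had 19 in the marked one. Per counted read it was 4.52-fold higher with Col-0 than with C24 mothers in the marked columns (95% exact interval 2.74 to 7.82), and 44.1-fold higher in the unmarked ones (11.9 to 370). The direction was the same in both. The intervals did not overlap, but they take PCR copies for separate molecules, and the size in the unmarked columns rests on 2 reads.

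**Figure D5:**
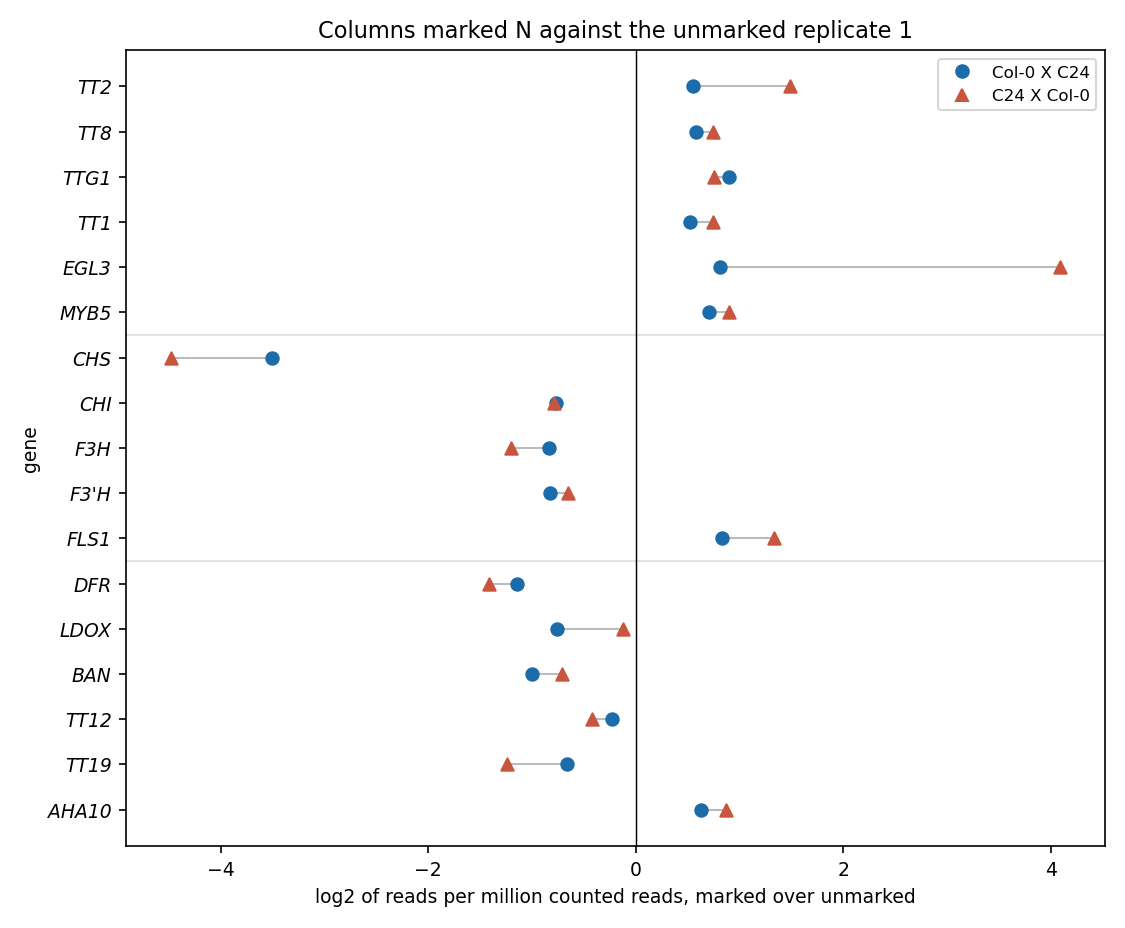
Log2 of reads per 1000000 counted reads in the column marked N over the unmarked replicate 1, for Col-0 X C24 (circles) and C24 X Col-0 (triangles), with 1 column over 1 column at each point. The 6 regulators lie to the right of 0 in both crosses, and the early and late enzymes to its left except FLS1 and AHA10.

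The loci whose pattern over the 4 libraries was most like each member were found by the root mean square difference in centred log2 CPM, among 8463 loci with at least 50 counts in each library. For TT1 they were AT5G64130 (0.0293) and AT2G21180 (0.0362), and the nearest gene of the lists was the enzyme gene CHI (0.0413). For TT8 they were AT5G12980 (0.0356) and LLG2 (0.051), with TT15 the nearest listed gene (0.139). TT2 was most like AT3G14960 (0.0192) and TAFII21 (0.0246), and TTG1 most like HEMB1 (0.015) and AT2G25610 (0.0151). MYB5 was most like RFO1 (0.00715) and AT5G11350 (0.0197). EGL3, which itself does not reach 50 counts in each library, had no close match, at 0.721 for AT5G39730 and 0.728 for TRE1. With 4 libraries such a likeness describes these libraries only.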

How the data were processed

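The authors deposited raw read counts per locus for 33602 loci, after trimming the reads and aligning them with BWA to the cDNA models of TAIR10, 1 count per locus, with SAMtools 0.1.7 among the tools named. How reads matching several loci were treated is not given in the sources used here, and read length is stated differently in the methods and the labels. The 4 unmarked columns match the 4 mRNA-seq libraries. The 5 amplicon samples were not analysed here.

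Loci with at least 10 counts in at least 2 libraries were fitted in edgeR 4.0.16 (R 4.3.3, TMM, robust quasi-likelihood, two-sided, Benjamini-Hochberg adjustment over all 16779 loci). DESeq2 1.42.0 served as an alternative. The edgeR fits between crosses, with and without the block, and between replicates were also run on simulated counts, with the outcome not given here. DESeq2 and the other settings were not run on them. P-values rest on the spread between these libraries, estimated with information shared across loci. In fits with the block, the shift between replicate numbers is taken out of that spread. The SE in edgeR was derived from the log2 fold change and its F statistic. Totals of 3538335 to 6498145 reads mean that a count of 0 allows up to 3 reads, or 0.462 to 0.848 reads per 1000000. Ratios of counts carry 95% exact (Clopper-Pearson) intervals. Lengths, positions and symbols are from TAIR10.1, which matched 97.7% of loci.

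The replicate number marks a shared nuclease treatment in the methods, and was taken to pair the libraries on that ground. Some abundant transcripts, such as CHS and DFR, were lower in the columns marked N than in replicate 2, and others, such as CHI and TT12, were lowest in replicate 2. Which columns were treated is therefore uncertain. Across genes, the replicate 2 over replicate 1 change had a Pearson correlation between the crosses (r = 0.553, genes not being independent replicates), and adding the block lowered the common dispersion from 0.209 to 0.0733. No block was in the main fit. Members and gene lists were chosen with earlier results of these data known. Named are the 6 members, the late tannin genes, listed genes that pass a test, up to 2 genes per list with the largest change between crosses, and 2 loci of like pattern per member. Other genes named, such as the MYB and bHLH paralogs and the markers, were added after their values were seen.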

Additional observations from a re-analysis of the deposited data

Results flagged for a closer look

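From replicate 1 to replicate 2, the log2 change of MYB5 was -0.51 in C24 X Col-0 and 0.002 in Col-0 X C24, so the signs were opposite, though the second value is close to 0. With 1 library per cross and replicate the difference was not tested, and the MYB5 counts share sequence with AT3G13530.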

How the results depend on the processing

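Of 65 alternative values for the members between the crosses, 58 kept their direction and their side of the threshold, as did 33 of 36 for the replicates. The loci called between the crosses, 0 at first, numbered 1118 with the replicate block, 302 in DESeq2, 585 with no filter, 1522 with the block and median-of-ratios size factors, 819 with the block in DESeq2, and 0 to 46 with a library left out. The settings that join the block with another choice, and the change within each cross alone, were chosen after seeing the data. TT1 passed in 1 of them (-0.99, block with median-of-ratios factors). The block changed no other member's call. TT2 turned to 0.04 with no filter. With a library left out, TT2 ranged from -0.36 to 0.26 (positive, at 0.26 and 0.07, without Col-0 X C24 replicate 2 and without C24 X Col-0 replicate 1), TT8 from -1.22 to -0.55, TTG1 from -0.45 to 0.20, TT1 from -1.83 to 0.04, EGL3 from 0.34 to 5.01 and MYB5 from -0.10 to 0.42. TTG1 and TT1 turned positive only without C24 X Col-0 replicate 1, and MYB5 negative only without replicate 2 of that cross. The fits with a library left out had no replicate block, so in them the cross was mixed with the replicate number. Between replicates, 1663 loci were called with the cross in the design and 0 without it, where TT1 was at -1.54. EGL3 passed with no filter (1.58), and MYB5 within Col-0 X C24 alone was at 0.00. With the shortest transcripts TTG1 and EGL3 in Col-0 X C24 moved to 27.1 and 7.9 per kilobase. EGL3 was not in the fit of loci with at least 20 counts in all 4 libraries. Leaving out libraries was not run between replicates. The causes were not tested.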
